A study of Sus scrofa with 2 samples.

Results

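The 6 genes PNLIP, PNLIPRP1, PNLIPRP2, CEL, PLA2G1B and CLPS, which encode pancreatic lipases, a phospholipase and colipase, were followed across the cell classes of the pig pancreas by single-nucleus RNA sequencing. They were chosen by symbol, and all 6 were found among the 31908 genes of the count matrices. The study compared a wild-type Bama pig (WT) with a transgenic Bama pig (PIGinH11) that carries GIPRdn, hIAPP and PNPLA3I148M, human disease susceptibility genes knocked in at the H11 locus on chromosome 14 under promoters of beta cells or liver. Both pigs were 18 months old, and both had control diet until 6 months and then 12 months of HFHSD, in which sucrose made 37%, pork lard 10% and the control diet the remaining 53%. A piece of pancreas of about 0.2 g was taken per group, so each group had 1 library. How much animals differ within a group was thus not measurable, no test between the groups was possible, and every interval below is an exact 95% interval that covers counting error only.

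Dietary fat is digested by enzymes that the acinar cells of the pancreas make and release into the intestine. Pancreatic lipase (PNLIP) splits triglycerides, and it needs colipase (CLPS), a small protein that holds it at the surface of bile-coated fat droplets. PNLIPRP1 and PNLIPRP2 are relatives of pancreatic lipase, of which PNLIPRP2 also splits galactolipids and phospholipids, while PNLIPRP1 has little known activity on triglycerides. Carboxyl ester lipase (CEL) is activated by bile salts and splits cholesterol and vitamin esters, and PLA2G1B is the secreted pancreatic phospholipase that splits phospholipids.

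The 3 relatives lie side by side in the Sscrofa11.1 genome. PNLIP lies at chr14:126771920-126789097, PNLIPRP1 at chr14:126796943-126812152 and PNLIPRP2 at chr14:126817647-126839273, with 7845 and 5494 bp between them. PLA2G1B lies at chr14:40314520-40322315, on the same chromosome, CEL at chr1:272763203-272770259 and CLPS at chr7:31618920-31621132. All are annotated as protein-coding genes. The 3 neighbours are related in sequence, and whether reads were assigned to the wrong relative was not tested.

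Counts are of unique molecular identifiers (UMIs), each of which marks 1 captured RNA molecule. Median depth per barcode was 3216 UMIs (WT) and 1181.5 UMIs (PIGinH11), and 60 barcode sequences occurred in both (0.441% and 0.401%). After filters, 11854 WT and 13126 PIGinH11 nuclei were clustered without the 6 genes and without ribosomal protein and mitochondrial genes. Other digestive enzymes (11 of 22 listed) and granule genes (11 of 18 listed) found by symbol were left out too. Listed genes not found by symbol could not be left out. Acinar-like nuclei numbered 8443 and 9073, endothelial-like 278 and 550 and stellate-like 195 and 240, while the mural-like, macrophage-like, lymphocyte-like and Schwann-like classes held only 35 to 47 WT and 77 to 121 PIGinH11 nuclei each. The 10 acinar markers together made 19474 and 17646 CPM (UMIs per 1000000 of the class) there and 1554 to 7048 CPM in the 8 other named classes, so acinar markers were measured in those classes too. A cluster of 348 WT and 179 PIGinH11 nuclei, led by CST3 and by CELA2A, PRSS2 and other enzymes, could not be named from the markers. It is called the enzyme-rich cluster.

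The 6 genes took 2.39% (WT) and 3.77% (PIGinH11) of all acinar-like UMIs (log2 ratio of PIGinH11 over WT 0.66, 0.65 to 0.66). The other digestive enzymes found by symbol, 11 of 22 listed, took 6.52% and 2.76% together. Of these, PRSS2 alone stood at 35762 CPM (WT) and 6374 CPM (PIGinH11). The same enzymes took 3.40% and 0.54% of endothelial-like and 3.78% and 0.57% of stellate-like UMIs. Their RNA was thus measured outside acinar-like nuclei too. In the enzyme-rich cluster the 6 genes took 9.26% and 7.36%. In CPM, the order in WT acinar-like nuclei was PNLIPRP1, CEL, CLPS, PNLIP, PLA2G1B and PNLIPRP2. In PIGinH11 nuclei it was PNLIPRP1, CEL, PNLIP, CLPS, PNLIPRP2 and PLA2G1B. The order was another when CPM was divided by kilobases of gene span. Short genes stand higher on this scale, which does not rank genes by the number of captured molecules. In WT it ran from CLPS (1976 CPM per kb) over CEL (984), PNLIPRP1 (458), PLA2G1B (232) and PNLIP (142) to PNLIPRP2 (62.4). Among PIGinH11 nuclei the order per kilobase was PNLIPRP1 (1262), CLPS (1233), CEL (994), PNLIP (388), PLA2G1B (117) and PNLIPRP2 (56.2).

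PNLIP was measured at 2444 CPM (2427 to 2462) in WT and 6663 CPM (6622 to 6704) in PIGinH11 acinar-like nuclei. In the 8 other named classes it ranged from 1068 CPM in ductal-like to 2477 CPM in macrophage-like nuclei of the WT library, where the macrophage-like interval (2220 to 2755) overlapped the acinar-like one. In the PIGinH11 library it ranged from 1066 CPM in ductal-like to 2924 CPM in Schwann-like nuclei, all below the acinar-like level. In CPM, PNLIP was 1.74 times the endothelial-like level in WT acinar-like nuclei and 5.75 times that level in PIGinH11 acinar-like nuclei.

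PNLIPRP1 stood at 6962 CPM (6932 to 6992) in WT and 19188 CPM (19120 to 19257) in PIGinH11 acinar-like nuclei. Its other named classes ran from 832 CPM (ductal-like) to 2462 CPM (macrophage-like) in the WT library and from 2256 CPM (ductal-like) to 7263 CPM (Schwann-like) in the PIGinH11 library. It was lower in these classes than in acinar-like nuclei in both libraries. PNLIPRP2 stood at 1349 CPM (1336 to 1362) and 1215 CPM (1198 to 1232), against 108 to 336 CPM and 122 to 424 CPM in the other named classes. CEL stood at 6944 CPM (6914 to 6974) and 7014 CPM (6972 to 7056), against 991 to 2762 CPM and 892 to 2885 CPM. Both genes were lower in every other named class than in acinar-like nuclei, in both libraries.

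PLA2G1B stood at 1806 CPM (1791 to 1822) in WT and 909 CPM (894 to 924) in PIGinH11 acinar-like nuclei, against 825 to 1944 CPM and 183 to 482 CPM in the other named classes. CLPS stood at 4373 CPM (4349 to 4397) and 2729 CPM (2704 to 2756), against 2406 to 6079 CPM and 859 to 2076 CPM. In the WT library the 40 macrophage-like nuclei were above the acinar-like nuclei in CLPS (5673 to 6507) and overlapped them in PLA2G1B (1717 to 2192). In the PIGinH11 library no class but the enzyme-rich cluster reached the acinar-like level of either gene.

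**Figure D1:**
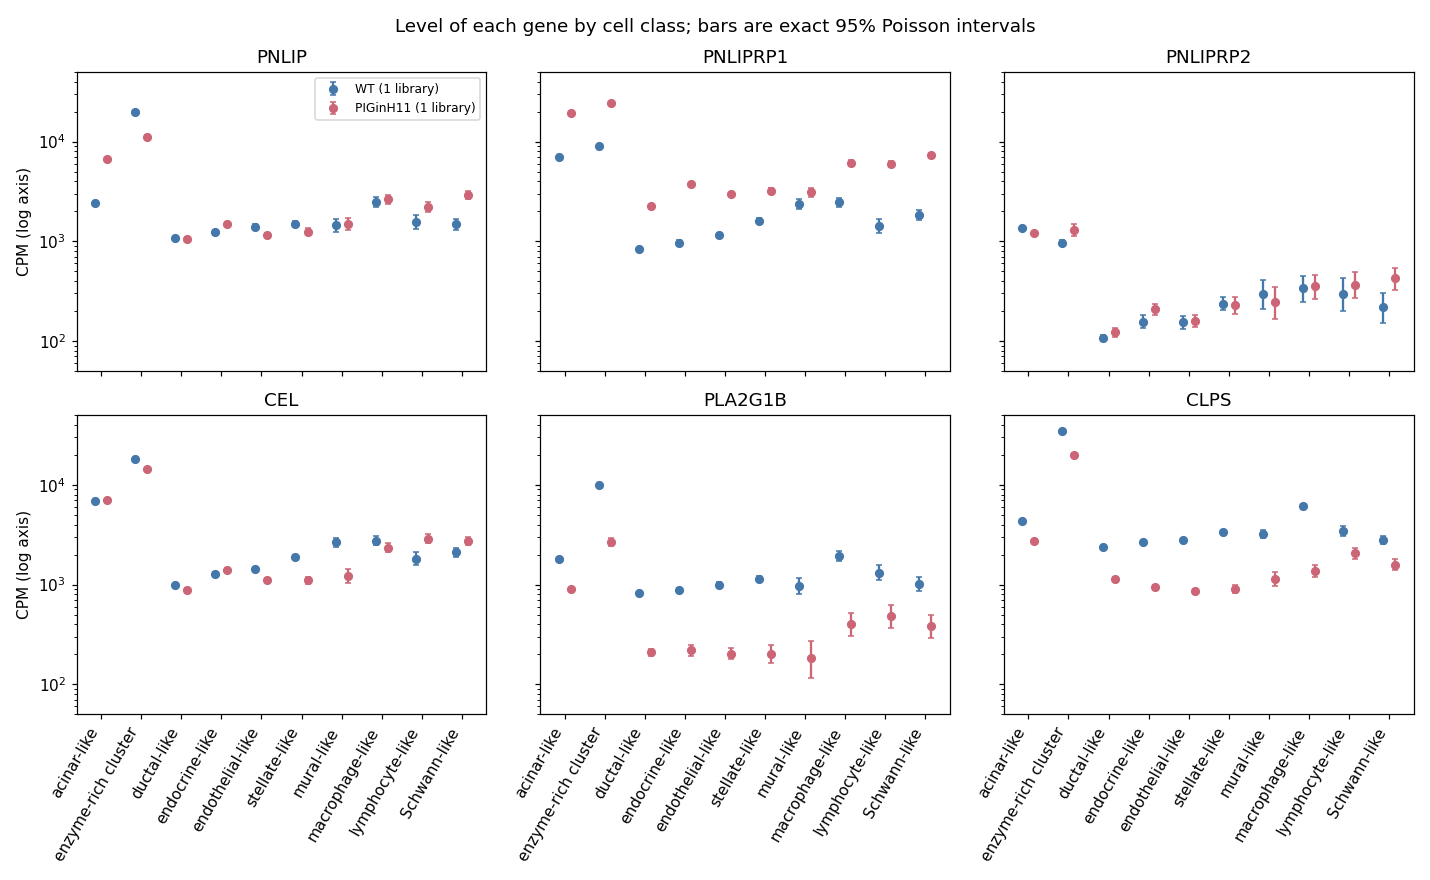
Level of each gene in CPM (log axis) in 9 named classes and the enzyme-rich cluster, 1 point per library, with exact 95% Poisson intervals. PNLIPRP1 of the PIGinH11 library lies above that of the WT library in every class, PLA2G1B and CLPS lie below it in every class, and WT PNLIP is at 2444 CPM in acinar-like and 19591 CPM in the enzyme-rich cluster.

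The comparison of the libraries in acinar-like nuclei separated the 6 genes. PNLIP was 2.73-fold (log2 ratio 1.45, 1.43 to 1.46) and PNLIPRP1 2.76-fold (1.46, 1.45 to 1.47) higher in the PIGinH11 library. PNLIPRP2, the third of the neighbours, had a log2 ratio of −0.15 (−0.18 to −0.13), and CEL of 0.01 (0.00 to 0.02), which became −0.21 when taken relative to the median of all genes. PLA2G1B was 1.99-fold lower (−0.99, −1.02 to −0.96) and CLPS 1.60-fold lower (−0.68, −0.70 to −0.66). Of the 6 genes, 2 were higher by at least 2-fold and none was lower by that fold. Both counts depend on the setting. The interval of PLA2G1B spanned the limit, and with nuclei thinned to 500 UMIs PLA2G1B had −1.34 and CLPS −1.03. With endothelial-like UMIs subtracted, as given below, PLA2G1B had −0.14 and CLPS 0.28. With a limit of 1300 UMIs, PNLIP had 0.33. Of the 15769 genes that reached 20 UMIs in both libraries, 16.8% were higher and 2.14% lower by 2-fold. Acinar-like nuclei held 30247851 UMIs in the WT and 15541768 in the PIGinH11 library. The floor of 20 UMIs was thus a higher CPM in PIGinH11, which tilts these shares towards higher. The median log2 ratio was −0.07 over the 6 genes and 0.23 over all genes tested. PNLIP and PNLIPRP1 were above 94.3% and 94.5% of the genes tested, while PLA2G1B and CLPS were above 2.19% and 4.90%.

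Several of these ratios differed with the depth of the nuclei compared. The limit of 1300 UMIs printed in the methods leaves out most WT barcodes (median 3216 UMIs). The study reports keeping most of them, so this limit was not the filter it applied. With a limit of 1300 UMIs, as the methods print it, 1504 WT and 5082 PIGinH11 acinar-like nuclei were left, and the log2 ratio was 0.33 for PNLIP, 1.36 for PNLIPRP1, −0.23 for PNLIPRP2, −0.06 for CEL, −2.08 for PLA2G1B and −1.80 for CLPS. Acinar-like nuclei were therefore also compared in bands of like depth, a choice made after seeing that limit. The 4 bands held 873, 2057, 2528 and 2985 WT nuclei and 3560, 3180, 1642 and 691 PIGinH11 nuclei.

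PNLIPRP1 was higher in the PIGinH11 library in every band, with log2 ratios of 1.33 (500 to 1000 UMIs), 1.58 (1000 to 2000), 1.74 (2000 to 4000) and 1.61 (4000 to 13000). PNLIP ran from 0.09 (0.04 to 0.15) over 0.89 and 1.73 to 1.81 (1.79 to 1.83). The shallowest nuclei of both libraries thus had PNLIP levels close to each other, 4502 CPM in WT and 4807 CPM in PIGinH11, while the deepest had 2378 and 8354 CPM. The WT level was highest in the shallowest band, and the PIGinH11 level in the deepest.

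The libraries were furthest apart in CLPS among the shallowest nuclei, and its ratio ran from −1.89 (−1.94 to −1.84) over −1.55 and −0.73 to −0.02 (−0.05 to 0.00). In the shallowest band it stood at 9510 CPM in WT and 2558 CPM in PIGinH11 nuclei, and in the deepest at 4125 and 4067 CPM, where the libraries could not be told apart at this depth. PLA2G1B ran from −2.28 (−2.37 to −2.19) over −1.58 and −0.74 to −0.62 (−0.66 to −0.57), lower in the PIGinH11 library in every band. PNLIPRP2 kept between −0.25 and −0.11 and CEL between −0.08 and 0.07. The ratios of PNLIP, PLA2G1B and CLPS thus ranged more widely over the bands than those of PNLIPRP1, PNLIPRP2 and CEL.

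**Figure D2:**
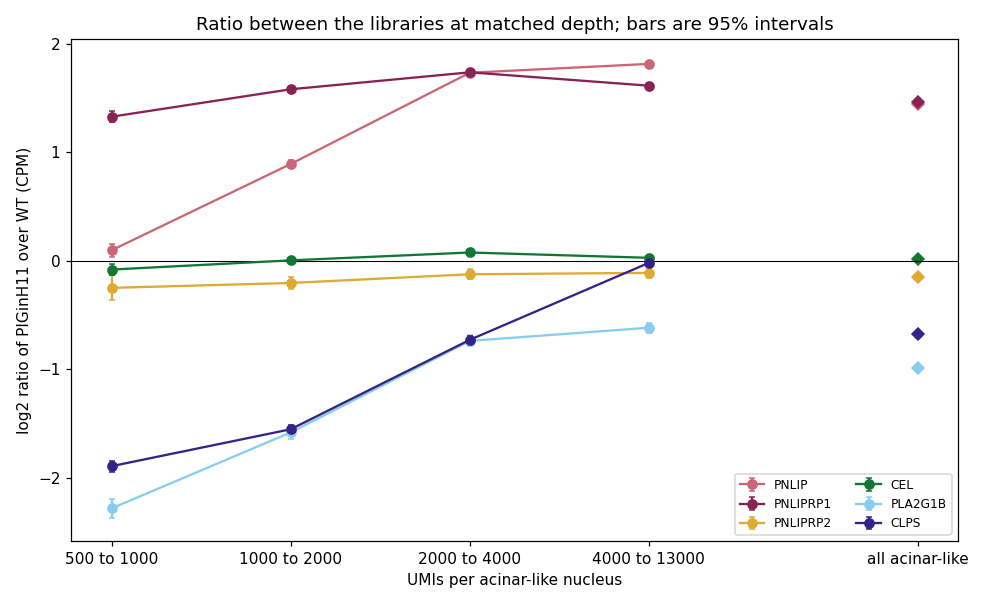
Log2 ratio of PIGinH11 over WT of each gene in acinar-like nuclei of 4 depth bands (UMIs per nucleus) with 95% intervals, and over all acinar-like nuclei (diamonds). PNLIPRP1 stays between 1.33 and 1.74, PNLIP goes from 0.09 to 1.81 and CLPS from −1.89 to −0.02.

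UMIs of the 6 genes in endothelial-like and stellate-like nuclei were taken as the background in each library. That these cells make none of the 6 genes' RNA themselves was assumed and not tested. A WT acinar-like nucleus held 8.76 UMIs of PNLIP, an endothelial-like one 5.54 and a stellate-like one 5.69. PIGinH11 nuclei held 11.4, 2.64 and 2.35 UMIs in the same order. The endothelial-like value was 63.3% (WT) and 23.1% (PIGinH11) of the acinar-like one. The excess of acinar-like over endothelial-like nuclei was thus 3.22 UMIs per nucleus in the WT and 8.78 in the PIGinH11 library.

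As a share of its acinar-like level, CLPS had the highest background, 10.99 UMIs per endothelial-like and 15.7 per acinar-like nucleus in the WT library (70.2%) and 1.95 and 4.68 in the PIGinH11 library (41.8%). For PLA2G1B the shares were 60.9% and 29.7%. PNLIPRP1 had 18.2% and 20.4%, CEL 22.6% and 21.1%, and PNLIPRP2 12.6% and 17.5%. The genes thus formed 2 groups in the WT library, PNLIP, PLA2G1B and CLPS with at least 60.9% and the rest with at most 22.6%, a split that was smaller in the PIGinH11 library. The acinar-like level in CPM was 1.57 times (CLPS) to 8.75 times (PNLIPRP2) the endothelial-like one in the WT library, and 3.18 times (CLPS) to 7.60 times (PNLIPRP2) in the PIGinH11 library.

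The endothelial-like UMIs per nucleus were subtracted from the acinar-like ones, and the remainder was divided by the mean total UMIs of an acinar-like nucleus in that library. On this depth-scaled measure the log2 ratios were 2.51 for PNLIP, 1.42 for PNLIPRP1, −0.23 for PNLIPRP2, 0.04 for CEL, −0.14 for PLA2G1B and 0.28 for CLPS. With the stellate-like UMIs subtracted, the values were 2.63, 1.57, −0.19, 0.23, 0.22 and 1.09. On the depth-scaled measure, CLPS was thus above 0 and PLA2G1B differed in sign between the 2 subtractions, while PNLIP and PNLIPRP1 stayed higher in the PIGinH11 library. Without the division by depth, the remainder for CLPS was 4.67 (WT) and 2.72 (PIGinH11) UMIs per nucleus over endothelial-like and 2.92 and 2.97 over stellate-like nuclei, and that for PLA2G1B was 2.53 and 1.09, and 2.12 and 1.18. The direction for CLPS over endothelial-like and for PLA2G1B over stellate-like nuclei therefore turned with the scaling to depth. The background itself moved with depth. WT endothelial-like nuclei below their median depth (median 2464 UMIs) held 21.1 UMIs of the 6 genes per nucleus and those above it (5137 UMIs) 41.4. The same division of PIGinH11 nuclei (865 and 3085 UMIs) gave 12.4 and 16.9. Each class was divided at its own median. In shallower PIGinH11 nuclei, PNLIPRP1 had 5.76 UMIs per endothelial-like and 11.5 per acinar-like nucleus, against 7.67 and 54.3 in deeper ones. In WT nuclei the PNLIPRP1 values were 2.67 and 9.61, against 6.40 and 40.3. CEL had 2.09 and 5.40 in shallower PIGinH11 nuclei and 3.35 and 11.3 in shallower WT nuclei.

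**Figure D3:**
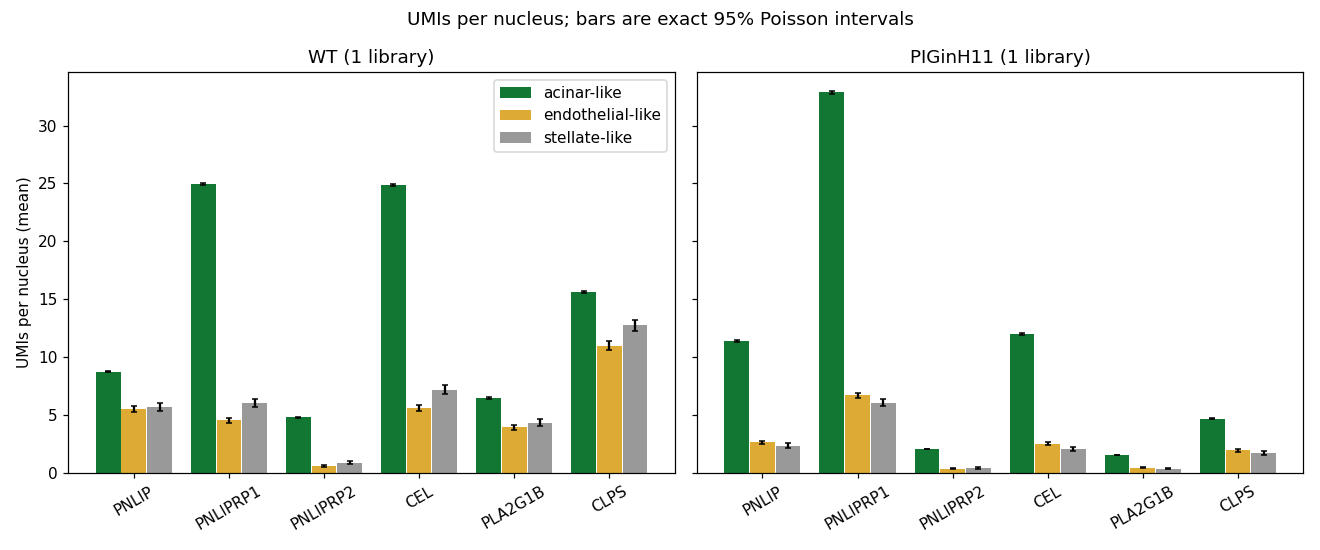
Mean UMIs per nucleus of each gene in acinar-like, endothelial-like and stellate-like nuclei of the WT (left) and PIGinH11 (right) library, with exact 95% Poisson intervals. WT CLPS stands at 15.7 UMIs in acinar-like and 10.99 in endothelial-like nuclei, and PIGinH11 PNLIPRP1 at 32.9 and 6.71.

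When 500 UMIs were drawn from each nucleus, for which all were deep enough, the share of nuclei with a PNLIP UMI was 63.0% in acinar-like and 44.96% in endothelial-like nuclei (WT), and 86.4% and 44.0% (PIGinH11). Without thinning it was 97.8% and 95.3% (WT), and 96.1% and 79.1% (PIGinH11), at median depths of 2849 and 3857 UMIs (WT) and 1203 and 1593 UMIs (PIGinH11). For PNLIPRP2 the thinned shares were 45.4% and 5.76% (WT) and 39.7% and 10.2% (PIGinH11), against 87.0% and 32.7% (WT) and 66.2% and 23.8% (PIGinH11) without thinning. Of the 6 genes, PNLIPRP2 had the largest fold between the thinned shares of acinar-like and endothelial-like nuclei in both libraries.

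The make-up of the UMIs of the 6 genes differed between acinar-like nuclei and the rest. In the WT library, PNLIPRP1 made 29.2% and CEL 29.1% of them in acinar-like nuclei and CLPS 18.3%. In the 8 other named classes CLPS made 29.4% to 38.6%, PNLIPRP1 13.4% to 21.5%, CEL 15.9% to 24.3%, PNLIP 13.2% to 17.7% and PLA2G1B 8.88% to 13.4%. In each of the 8 classes the share of CLPS was thus higher, and those of PNLIPRP1 and CEL lower, than in acinar-like nuclei.

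In the PIGinH11 library, PNLIPRP1 made 50.9% of the UMIs in acinar-like nuclei and 39.7% to 47.4% in the other named classes, and CLPS 7.24% and 10.3% to 20.1%. The share of CLPS was again higher and that of PNLIPRP1 lower in each of the 8 classes. In the enzyme-rich cluster CLPS made 37.5% and PNLIPRP1 9.71% in the WT library, and 27.1% and 32.9% in the PIGinH11 library.

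**Figure D4:**
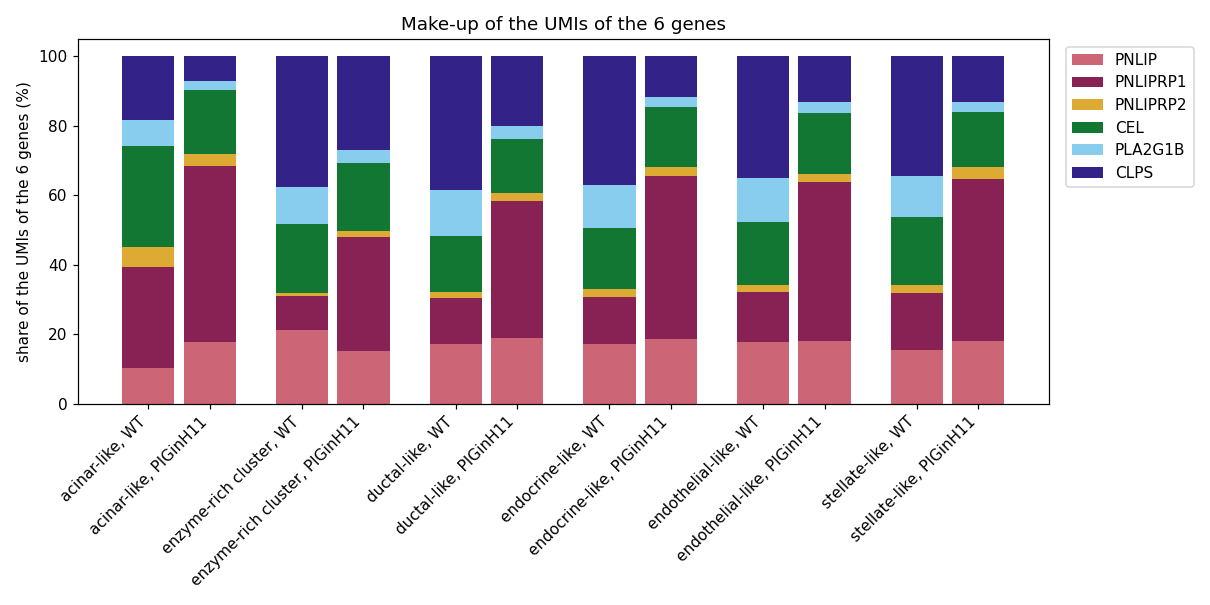
Share (%) of each gene among the UMIs of the 6 genes, as stacked bars for acinar-like, enzyme-rich, ductal-like, endocrine-like, endothelial-like and stellate-like nuclei of each library. CLPS makes 18.3% in WT acinar-like nuclei and 35.2% in WT endothelial-like nuclei, and PNLIPRP1 50.9% and 45.8% in those of the PIGinH11 library.

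Outside acinar-like nuclei, PNLIPRP1, PLA2G1B and CLPS kept the direction they had there. The classes of a library share its background, so these classes are not separate observations of a change. How much of these ratios was background was not tested. PNLIPRP1 was higher in the PIGinH11 library in all 8 other classes (log2 ratio 0.40 in mural-like to 2.06 in lymphocyte-like nuclei). PLA2G1B (−2.51 to −1.41) and CLPS (−2.14 to −0.73) were lower in all 8. PNLIP ranged from −0.28 in endothelial-like to 0.99 in Schwann-like nuclei, PNLIPRP2 from −0.29 to 0.96 and CEL from −1.13 to 0.66. By the 2-fold limit, PNLIPRP1 was higher, and PLA2G1B and CLPS lower, in ductal-like (11.9% of genes tested higher and 1.74% lower), endocrine-like (3.41% and 1.74%), endothelial-like (3.0% and 2.61%) and stellate-like nuclei (3.79% and 1.66%).

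In the enzyme-rich cluster the WT library had 19591 CPM of PNLIP and the PIGinH11 library 11083 CPM (log2 ratio −0.82, −0.89 to −0.75). CLPS stood at 34781 and 19945 CPM (−0.80), PLA2G1B at 9903 and 2672 CPM (−1.89), CEL at 18395 and 14324 CPM (−0.36), PNLIPRP2 at 972 and 1309 CPM (0.43) and PNLIPRP1 at 8991 and 24217 CPM (1.43). PNLIP, 1.45 in acinar-like nuclei, thus had the opposite sign here. Of 948 genes tested in this cluster, 82.9% were higher by 2-fold and 7.17% lower (median log2 ratio 2.84), and its median depth was 3041 UMIs in the WT and 657 UMIs in the PIGinH11 library. Other digestive enzymes found by symbol took 51.9% of the UMIs of this cluster in the WT and 9.64% in the PIGinH11 library. Its nuclei were thus unlike in make-up between the libraries. The part of depth, of make-up and of the floor in these values was not tested.

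Among the 6 acinar-like clusters, PNLIP ratios ranged from 0.11 (0.07 to 0.15) in cluster 7 to 2.21 (2.19 to 2.24) in cluster 1. Cluster 1 had 1320 CPM in WT and 6124 CPM in PIGinH11 nuclei, and cluster 7 had 8459 and 9118 CPM. PNLIPRP1 was higher in all 6 (1.02 to 1.61), and PLA2G1B (−1.69 to −0.57) and CLPS (−1.39 to −0.32) were lower in all 6. CEL ranged from −0.15 to 0.19 and PNLIPRP2 from −0.51 to 0.24.

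Acinar-like nuclei of each library were also ranked by their share of other digestive enzymes and divided into 5 groups within that library. These enzymes took 3.13% of UMIs in the lowest and 17.4% in the highest WT group, and 1.44% and 4.71% in those of PIGinH11. Groups of the same rank were thus unlike in this share between the libraries, and the WT groups spanned a wider range. In the WT library, CLPS went from 1828 CPM in the lowest to 12833 CPM in the highest group (7.02-fold), PNLIP from 1170 to 6723 CPM (5.75-fold) and PLA2G1B from 1091 to 4061 CPM (3.72-fold). CEL differed by 1.74-fold, PNLIPRP1 by 1.13-fold and PNLIPRP2 by 0.96-fold. The WT nuclei rich in other enzymes thus had higher shares of PNLIP, PLA2G1B and CLPS, less so of CEL, and not of the relatives of PNLIP. Their median depth was also the lowest of the 5 groups. PNLIP, PLA2G1B and CLPS also had the highest background shares in the WT library, and the part of depth and background was not tested.

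The folds in the PIGinH11 library were 4.31 for CLPS, 1.78 for CEL, 1.77 for PLA2G1B, 1.47 for PNLIP, 1.23 for PNLIPRP2 and 1.19 for PNLIPRP1. Between groups of the same rank, PNLIP had a log2 ratio of PIGinH11 over WT of 2.23 in the lowest and 0.26 in the highest group. PLA2G1B had −0.63 and −1.70, CLPS −0.40 and −1.10, and PNLIPRP1 1.38 and 1.45. Because groups of the same rank differed in their share of other enzymes, these ratios do not compare like nuclei. Median depth fell from 5365 UMIs in the lowest to 1261 UMIs in the highest group of the WT library and was 1153 to 1256 UMIs in the groups of the PIGinH11 library.

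**Figure D5:**
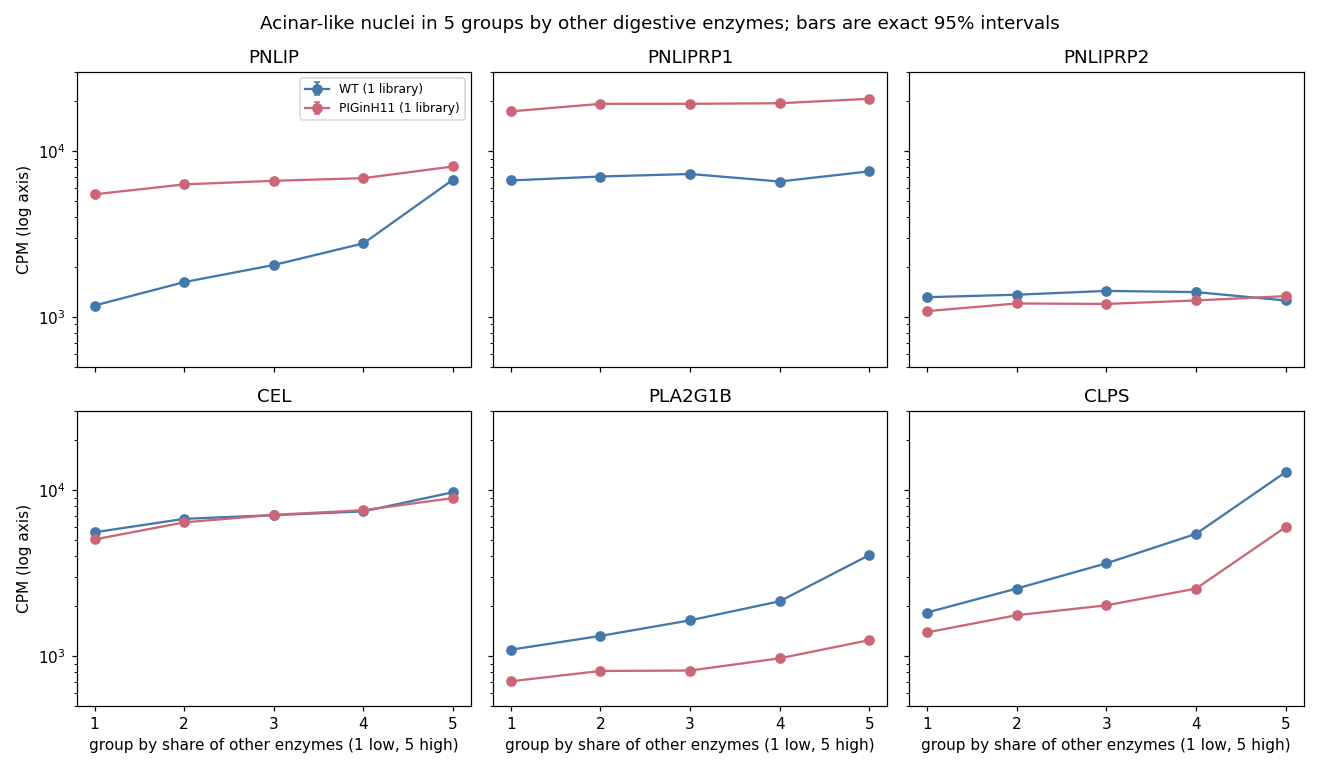
Level in CPM (log axis) of each gene in 5 groups of acinar-like nuclei ranked within each library by the share of other digestive enzymes, 1 line per library, with exact 95% intervals. WT PNLIP goes from 1170 to 6723 CPM and PIGinH11 PNLIP from 5480 to 8065 CPM, while both PNLIPRP1 lines stay level.

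Over single WT acinar-like nuclei (n = 8443), the shares of PNLIP and CLPS had a Spearman correlation of 0.56, PLA2G1B and CLPS of 0.50 and PNLIP and PLA2G1B of 0.42, as a description over nuclei of 1 library that share its depth and background. PNLIP and PNLIPRP1 had 0.00. In the PIGinH11 library (n = 9073) every pair was at most 0.19. Counts were sparser there, with no PLA2G1B UMI in 41.8% of nuclei against 3.34% in WT. The median CLPS count was 2 UMIs against 10 in WT. Nuclei were not thinned for these correlations, and the part of this sparsity was not tested. The most loaded 5% of nuclei held 35.5% of PNLIP UMIs and 34.5% of CLPS UMIs in the WT library, and 31.0% and 44.96% in PIGinH11 nuclei.

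Over the 18 levels of 9 classes in 2 libraries, which share library, depth and background, the genes most like each of the 6 were found among 10765 genes by Pearson correlation of log2(CPM + 5). PNLIPRP1 was most like DNASE1 (r = 0.99), PDIA2 (0.98) and MAMDC4 (0.96). PLA2G1B was most like CTRC (0.99), CELA2A (0.97) and MT1A (0.96), and CLPS most like CTRC (0.98), RPS2 (0.97) and PRSS2 (0.95), so that both had the gene of chymotrypsin C first. PNLIP was most like AQP8 (0.90), TMEM97 (0.90) and GP2 (0.89), CEL most like DPEP1 (0.96), SUCO (0.95) and HHIP (0.94), and PNLIPRP2 most like ADAD1 (0.95), NUPR1 (0.95) and GATM (0.94). Between the 6 genes, r was 0.98 for PLA2G1B and CLPS, 0.95 for PNLIPRP2 and CEL, and −0.17 for PNLIPRP1 and CLPS.

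Other genes around fat digestion and acinar secretion were counted in acinar-like nuclei by the same 2-fold limit, which 16.8% of all genes tested passed higher and 2.14% lower. Of 9 other digestive enzymes tested, 1 was higher and 4 lower (median log2 ratio −0.73), from PRSS2, a trypsinogen (−2.49, 35762 and 6374 CPM), to DNASE1, a deoxyribonuclease (1.13, 2393 and 5240 CPM). Of 15 other lipases, 4 were higher and 1 lower (0.69), from MGLL, which splits monoglycerides (−1.13), to LIPE, hormone-sensitive lipase (1.65, on 26 and 42 UMIs). Of 9 granule and protective proteins, 3 were higher and 1 lower (0.45), from ERP27 (−1.14) to CLPSL2, a relative of colipase (2.44, on 37 and 103 UMIs). The ratios of PNLIP and PNLIPRP1 were thus opposite in sign to the median of the other digestive enzymes. No background was subtracted from these list ratios. Other digestive enzymes took 3.40% (WT) and 0.54% (PIGinH11) of endothelial-like UMIs, and how much of their ratios was background was not tested.

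Of 11 acinar transcription factors, none was higher and 1 was lower (−0.03), from XBP1, which drives the secretory machinery (−1.09), to PTF1A, which sets acinar identity (0.58). Of 10 genes of secretagogue receptors and calcium release, none passed the limit in either direction (0.20), from CCKAR, the cholecystokinin receptor (−0.81), to CHRM3, a muscarinic receptor (0.73, on 100 and 85 UMIs).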

How the data were processed

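Nuclear RNA of 1 pancreas piece per group was sequenced on the 10x platform. The authors aligned reads to Sscrofa11.1 and deposited raw UMI counts per gene and barcode made with Cell Ranger (v3.1.0 in the methods and labels, v5.0.0 in the matrix headers), before doublet removal and filters. The matrices held 55784067 (WT) and 26228811 (PIGinH11) UMIs.

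A barcode was kept if it had between 270 and 3700 genes, below 13000 UMIs and a mitochondrial share under 10%. The methods print 1300 for the UMI limit, under which the study could not have kept most WT barcodes, and this limit was tried as an alternative. Scrublet (scanpy v1.11.5) removed the highest-scoring 0.8% per 1000 barcodes. Harmony (30 components) and Louvain clustering at resolution 1 (igraph v0.11.9) gave clusters, which were named from marker genes, many of them chosen by the authors on these libraries. UMIs were summed per class and library. Intervals were Poisson (levels), conditional binomial (ratios) and Clopper–Pearson (shares). Counts of genes past a 2-fold ratio used those that reached 20 UMIs in both libraries. This floor is a higher CPM in the library with fewer UMIs of a class, which tilts the counts.

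The genes, lists and rules were chosen with earlier results of these data known. The rule named the 6 genes, the 3 genes most like each (at least 100 acinar-like UMIs) and the highest and lowest gene of each list. Only the log2 ratio and its interval were tried on simulated counts, drawn with counting error alone and without background or differences in depth between nuclei. Doublet removal, clustering, class naming, thinning and background subtraction were not simulated. Settings tried are given in the closing section.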

Additional observations from a re-analysis of the deposited data

Results flagged for a closer look

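Some log2 ratios of PIGinH11 over WT had opposite signs in acinar-like nuclei and in another class, with both 95% intervals clear of 0, and the difference between the classes was not tested. PNLIP had 1.45 in acinar-like nuclei against −0.28 in endothelial-like and −0.26 in stellate-like nuclei and −0.82 in the enzyme-rich cluster. CEL had 0.01 in acinar-like nuclei, which is near 0, against −0.15 in ductal-like, −0.35 in endothelial-like and −0.79 in stellate-like nuclei and −0.36 in the enzyme-rich cluster. PNLIPRP2 had −0.15 against 0.18 in ductal-like and 0.41 in endocrine-like nuclei and 0.43 in the enzyme-rich cluster. The nuclei of the enzyme-rich cluster were unlike between the libraries, with 51.9% (WT) and 9.64% (PIGinH11) of UMIs from other digestive enzymes. With 1 library per group, these intervals hold no difference between animals.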

How the results depend on the processing

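No paired analysis was possible because each group had 1 library and no test was made. PNLIPRP1 was higher in the PIGinH11 library in acinar-like nuclei under every setting tried, with log2 ratios of 1.23 to 1.74, and PNLIPRP2 was lower under every setting, while the sign of CEL, whose value lay near 0, changed with the setting. The values of PNLIP, PLA2G1B and CLPS moved more over the depth bands and background subtractions than those of PNLIPRP1, PNLIPRP2 and CEL. How far depth and background set them was not tested. Louvain resolution 2, which moved 22 nuclei, and leaving doublets in changed no log2 ratio beyond its interval. Where not stated otherwise, the cause of a change was not tested.

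The log2 ratios that left their interval were as follows. With the UMI limit of 1300, PNLIP had 0.33, PNLIPRP1 1.36, PNLIPRP2 −0.23, CEL −0.059, PLA2G1B −2.08 and CLPS −1.80. With at least 500 genes per nucleus, PNLIP and PNLIPRP1 had 1.48, PLA2G1B −0.96 and CLPS −0.66. With all genes in the clustering PNLIP had 1.47 and without Harmony CLPS had −0.65. With median-of-ratios scaling, which takes off 0.23, PNLIP had 1.22, PNLIPRP1 1.23, PNLIPRP2 −0.38, CEL −0.21, PLA2G1B −1.22 and CLPS −0.91. With enzyme, ribosomal protein and mitochondrial genes left out of the denominator, PNLIP had 1.41, PNLIPRP1 1.42, PNLIPRP2 −0.19, CEL −0.026, PLA2G1B −1.03 and CLPS −0.72. As a mean over nuclei, PNLIP had 1.11, PNLIPRP1 1.38, PNLIPRP2 −0.25, CEL −0.013, PLA2G1B −1.32 and CLPS −1.04. With nuclei thinned to 500 UMIs, PNLIP had 1.12, PNLIPRP1 1.37, PNLIPRP2 −0.24, CEL −0.052, PLA2G1B −1.34 and CLPS −1.03. With endothelial-like UMIs per nucleus subtracted and the remainder divided by the mean UMIs of an acinar-like nucleus, PNLIP had 2.51, PNLIPRP1 1.42, PNLIPRP2 −0.23, CEL 0.042, PLA2G1B −0.14 and CLPS 0.28. With stellate-like UMIs subtracted and the same division, PNLIP had 2.63, PNLIPRP1 1.57, PNLIPRP2 −0.19, CEL 0.23, PLA2G1B 0.22 and CLPS 1.09. With the enzyme-rich cluster counted as acinar-like, PNLIP had 1.09, PNLIPRP1 1.45, CEL −0.065, PLA2G1B −1.21 and CLPS −0.95.

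The depth bands were chosen after seeing the data. In nuclei of 500 to 1000 UMIs, PNLIP had 0.095, PNLIPRP1 1.33, PNLIPRP2 −0.25, CEL −0.083, PLA2G1B −2.28 and CLPS −1.89. From 1000 to 2000 UMIs the values were 0.89, 1.58, −0.21, 0.0023, −1.58 and −1.55 in this order, from 2000 to 4000 UMIs 1.73, 1.74, −0.13, 0.075, −0.74 and −0.73, and from 4000 to 13000 UMIs 1.81, 1.61, −0.11, 0.026, −0.62 and −0.020.

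The fold of acinar-like over endothelial-like CPM stayed above 1 for every gene under the settings tried. With doublets left in, it was 5.48 for PNLIPRP1, 6.41 for PNLIPRP2 and 4.36 for CEL in the WT library, and 4.46 for PNLIP, 4.86 for PNLIPRP1, 5.32 for PNLIPRP2, 4.60 for CEL, 3.76 for PLA2G1B and 2.75 for CLPS in the PIGinH11 library. Over stellate-like nuclei it was 3.35 for PNLIPRP1, 4.34 for PNLIPRP2 and 3.05 for CEL in the WT library, and 3.72 for PNLIP, 4.10 for PNLIPRP1, 4.16 for PNLIPRP2, 4.55 for CEL, 3.28 for PLA2G1B and 2.52 for CLPS in the PIGinH11 library. With at least 500 genes, the PIGinH11 fold over endothelial-like nuclei was 6.39 for PNLIP, 7.19 for PNLIPRP1, 7.02 for CEL and 3.54 for CLPS, and over stellate-like nuclei 6.41 for PNLIPRP1. Without Harmony it was 6.77 for PNLIPRP1 over endothelial-like nuclei, 5.96 for PNLIP and 6.57 for PNLIPRP1 over stellate-like nuclei, and 3.87 for CEL over WT stellate-like nuclei. With 1 UMI in each library in place of 20, 27.03% of genes were higher by 2-fold and 3.43% lower.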
